A study of Mus musculus with 21 samples.

Results

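The presynaptic vesicle release machinery was described here as a set of 47 genes chosen by known function (SNAREs and their partners, priming and active zone proteins, the ribbon gene, vesicle proteins, Rab3 effectors and endocytosis genes) and matched by symbol to a count table of 52550 genes. All 47 were found, with 1 row each, and all 47 passed the filter on low counts in both fits. The table came from RNA-Seq of spiral ganglion neurons (SGNs), the neurons that carry signals from hair cells (HCs) to the brain, with HCs and glia as reference cells, all from C57BL/6 mice carrying the Rosa26-CAG-loxp-stop-loxp-tdTomato/+ reporter. SGNs were picked by hand from the cochlea of ShhCre/+ mice before birth (E15.5) and at 4 postnatal ages (P1, P8, P14, P30), with 69 to 195 cells per library. HCs came at P12 from the cochlear and vestibular organs of Atoh1-CreER+ mice given tamoxifen at P0 and P1, with about 1200 cells per library. Glia came at P8 from the SGN area of vGlut3-iCreER/+ mice given tamoxifen at P2 and P3, with 86 to 125 cells per library. Each of the 7 groups had 3 libraries. Every group was therefore a pool of cells selected by a Cre line and a fluorescent reporter, the HC group mixed 2 organs, and HCs and glia were each sampled at a single age. Nothing in the labels tied a library to separate animals, so the p-values measure only the spread between these libraries, which may be technical.

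Neurotransmitter release depends on SNARE proteins. Syntaxin and SNAP25 on the plasma membrane zip together with a VAMP (synaptobrevin) on the vesicle, complexins clamp and promote the final step, and NSF with its SNAP adaptors takes spent complexes apart. Munc13, RIM, RIM-binding, ELKS, liprin, Bassoon and Piccolo proteins hold and prime vesicles at the active zone. The HC synapse is a ribbon synapse, in which vesicles gather on a body built from RIBEYE, a product of the Ctbp2 gene. SGNs are postsynaptic to HCs in the cochlea and release transmitter from their own terminals in the brainstem, so the same gene families serve both cell types at opposite ends of the same pathway.

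Total counts ran from 10368240 to 37287489 per library. Levels are given as RPKM, meaning CPM per kilobase of gene with library sizes scaled by trimmed mean of M-values (TMM) over all 21 libraries. The length is the deposited length of the gene and not that of the transcripts expressed. Rankings and shares between genes therefore depend on the annotation. RPKM was preferred to TPM because the short RNA gene Gm23935 took 8.17% to 68.1% of TPM in a library against 0.186% to 4.70% of counts. Markers of SGNs (5 genes, such as Slc17a6 and Tubb3) summed to 271 to 649 RPKM in SGN libraries and to a median of 13.4 in HC libraries. HC markers (5 genes) summed to 432 to 463 RPKM in HCs, to 12.7 to 56.2 in SGNs and to 31.2 to 49.9 in glia. The 3 glial markers summed to 453 to 566 RPKM in glia and to 0.439 to 33.8 in SGNs. Glia replicate 1 stood apart, with SGN markers at 61.7 RPKM against 8.93 and 5.70 in the other glia libraries. Schwann cell myelin markers (5 genes) summed to 627 to 1042 RPKM in P8 SGN libraries, 35.8 to 122 in P1 and 106 to 402 in P14 ones, against 6034 to 8400 in glia. Connective tissue markers (4 genes) were highest in replicate 1 of every SGN age, at 58.7 RPKM at P1 against 3.28 and 3.04 in its other libraries, and 45.1 at P8 against 11.2 and 8.17, beside 205 to 367 in glia. Blood markers (4 hemoglobin genes) were at 115.5 RPKM in E15.5 replicate 1 and at 19.3 and 22.2 in P1 and P8 replicate 1, and below 0.12 in the other E15.5, P1 and P8 libraries. At P30 they were at 15.3 RPKM in replicate 1 against 0.136 and 2.58 in replicates 2 and 3.

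The promoters of 3 members are shown because Cplx1 and Vamp1 rose in both early transitions and Stx1a fell from P1 to P8, and the second listed start of Ctbp2 is shown because it opens a long first exon, as the RIBEYE form is known to have. RefSeq promoters (GRCm38.p6, 250 bases before to 50 bases after the listed start) were found for 41 of the 47 members. Each is printed 5′ to 3′ on the gene's strand, and capitals mark GGGCGG (a GC box) or CAGGTG (an E-box), searched on both strands together with TGACGTCA and TCAAGGTCA. Cplx1 lies at chr5:108549978-108550277 (minus strand), Vamp1 at chr6:125215331-125215630 (plus), Stx1a at chr5:135023232-135023531 (plus) and the second Ctbp2 start at chr7:133015198-133015497 (minus).
Cplx1: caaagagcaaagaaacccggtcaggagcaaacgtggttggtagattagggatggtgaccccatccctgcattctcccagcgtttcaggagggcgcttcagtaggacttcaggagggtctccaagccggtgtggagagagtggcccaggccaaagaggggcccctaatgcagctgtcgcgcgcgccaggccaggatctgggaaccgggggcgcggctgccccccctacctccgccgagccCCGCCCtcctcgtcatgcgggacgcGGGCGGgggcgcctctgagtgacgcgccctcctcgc
Vamp1: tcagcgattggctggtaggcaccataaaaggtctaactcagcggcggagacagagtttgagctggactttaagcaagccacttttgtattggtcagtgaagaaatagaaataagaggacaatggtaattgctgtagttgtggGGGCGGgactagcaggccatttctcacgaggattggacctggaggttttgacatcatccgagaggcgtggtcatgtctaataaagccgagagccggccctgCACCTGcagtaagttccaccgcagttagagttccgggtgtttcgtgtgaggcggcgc
Stx1a: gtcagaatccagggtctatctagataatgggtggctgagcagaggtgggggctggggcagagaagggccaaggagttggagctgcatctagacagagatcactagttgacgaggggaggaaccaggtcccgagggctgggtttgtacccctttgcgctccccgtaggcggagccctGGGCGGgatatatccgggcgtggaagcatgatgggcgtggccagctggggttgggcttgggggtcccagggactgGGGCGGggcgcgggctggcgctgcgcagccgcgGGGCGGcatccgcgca
Ctbp2: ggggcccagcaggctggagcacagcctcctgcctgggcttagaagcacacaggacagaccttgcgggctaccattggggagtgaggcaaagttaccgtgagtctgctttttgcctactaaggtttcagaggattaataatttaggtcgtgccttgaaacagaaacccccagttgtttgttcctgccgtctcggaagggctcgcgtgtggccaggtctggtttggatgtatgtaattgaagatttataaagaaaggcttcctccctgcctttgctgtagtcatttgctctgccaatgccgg
GGGCGG occurred in 32 of 53 member promoters (60.4%) and in 35.7% of all 32851 promoters, and CAGGTG in 13 of 53 (24.5%) against 20.2%. TGACGTCA was found in 2 member promoters (3.77%, against 1.79% of all) and TCAAGGTCA in none of the 53 (0.423% of all). The rising Cplx1 and Vamp1 promoters and the falling Stx1a promoter all held GGGCGG, and the Ctbp2 start held none of the 4 motifs. In the GENCODE M21 annotation the second Ctbp2 start lies at a first exon of 1731 bases, at chr7:133013518-133015248, inside the gene at chr7:132987563-133124354.

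**Figure D1:**
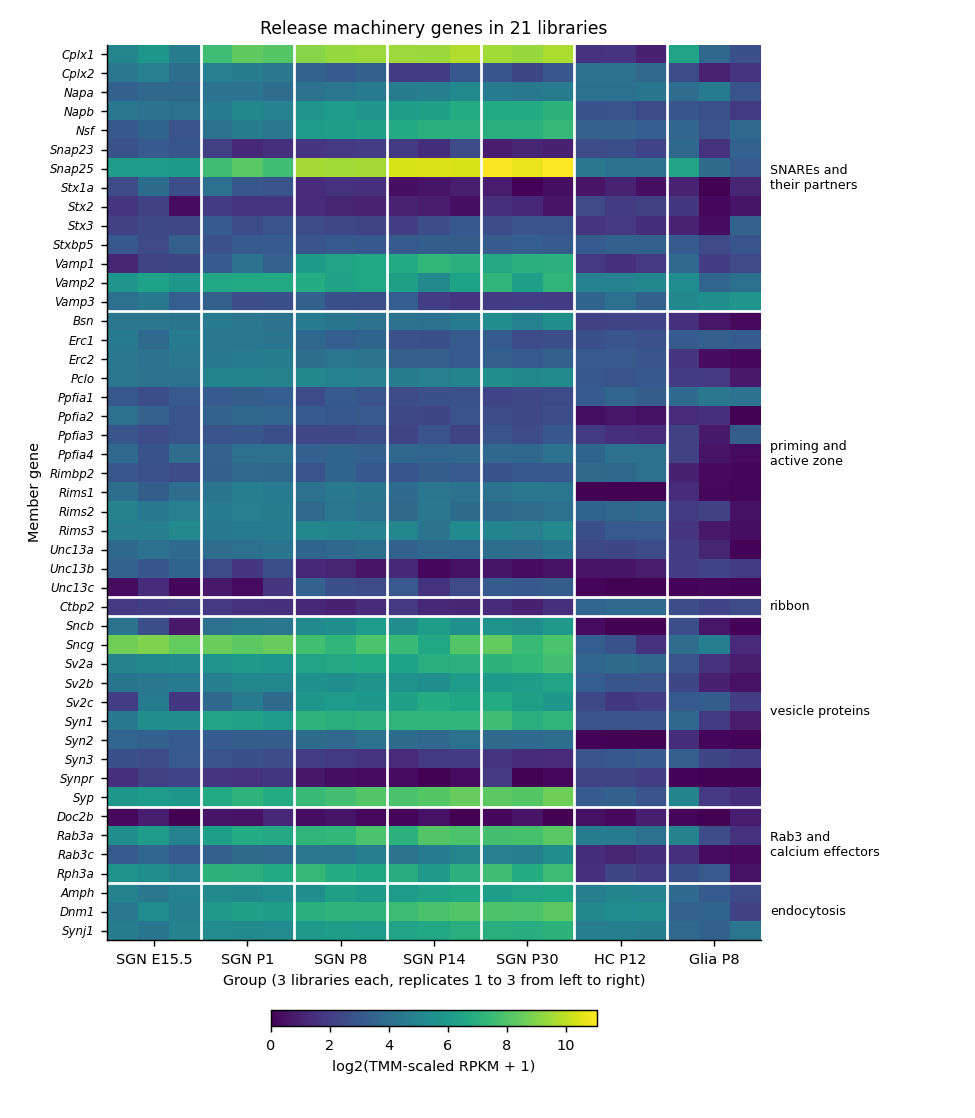
Heat map of the 47 members (rows, by role) in the 21 libraries (columns, 3 per group), with color giving log2(TMM-scaled RPKM + 1). Snap25 and Cplx1 are the brightest rows in SGNs from P8 on, and Rims1, Syn2 and Sncb are dark in all 3 HC libraries.

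The mean summed RNA level of the release machinery was higher at each later SGN age. Abundant members weigh most in this sum. The summed level of the 47 members went from 1266 ± 147 RPKM (SD, n = 3) at E15.5 over 2052 ± 169 on P1, 3382 ± 224 on P8 and 4516 ± 470 on P14 to 5571 ± 696 on P30, against 406 ± 15.4 in HCs and 347 ± 175 in glia. The ages did not overlap up to P14, and P14 (4112 to 5031) overlapped P30 (4824 to 6199). Over the same ages the median SGN marker sum went from 296 to 534 RPKM, and the mitochondrial share of counts from 9.57% to 13.5% at E15.5 to 17.9% to 22.1% at P30, with the highest at P14 (22.2% to 24.2%), and their part in the result was not tested. In such bulk samples, fewer cells of a type and less RNA per cell cannot be told apart. At E15.5 the highest member was Sncg (gamma-synuclein) at 417 RPKM, followed by Snap25, Vamp2 and Syp. At P30 Snap25 led with 1969 RPKM, ahead of Cplx1 with 754 and Syp with 328. The means of Snap25 and Cplx1 at E15.5 were 66.1 and 37.6 RPKM, so the sum does not describe a rise of every member. By role, the sum over the 14 SNAREs and their partners went from 274 ± 55.2 to 3279 ± 399 RPKM, whereas the 15 priming and active zone genes stood at 208 ± 25.2 at E15.5 and 215 ± 23.2 at P30. Of the 47 members, 20 had their highest age mean at P30, 13 at P1, 8 at E15.5, 6 at P14 and 0 at P8. The same counts over all genes were not made.

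Changes were tested with limma-voom across all genes, and a change was called at a Benjamini-Hochberg adjusted p under 0.05 and over 2-fold between ages. From E15.5 to P1, 9 members rose and 2 fell, against 5.08% of all 15113 genes tested that rose and 3.18% that fell. The step from P1 to P8 had 9 that rose and 4 that fell (4.29% and 3.15% of all genes), and with scaling by library size alone the split became 7 and 7. From P8 to P14 no member passed in either direction (0.251% of all genes rose and 0.285% fell), while 14 members had an unadjusted limma p under 0.05, edgeR called 1 and DESeq2 called 0. The share of all genes at that unadjusted p was not counted, so the 14 cannot be set against it. From P14 to P30 Bsn alone rose (0.0331% of all genes rose and 0.0265% fell). Between E15.5 and P30, 19 rose and 10 fell (18.4% and 16.2% of all genes). The median log2 change of the 47 members was 0.54, -0.03, 0.01 and 0.13 in the 4 successive steps and 0.53 over the whole span, beside 0.07, -0.01, -0.02, -0.01 and -0.01 over all genes. These comparisons share libraries and are not independent of each other.

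Among the core SNAREs, Snap25 rose in both early steps and Snap23 fell in the first. Snap25, which joins syntaxin and VAMP in the SNARE bundle, stood at 67.3, 66.3 and 64.8 RPKM at E15.5, at 206, 300.5 and 198 at P1, at 758, 737 and 760.2 at P8, at 1357, 1435 and 1373 at P14 and at 2057, 1697 and 2154 at P30. No library of an age overlapped the next. The log2 change was 1.80 ± 0.17 (SE) from E15.5 to P1 (limma, adjusted p = 1.49e-05), 1.71 ± 0.13 from P1 to P8 (limma, adjusted p = 1.19e-06) and 4.86 ± 0.15 over the whole span (limma, adjusted p = 2.49e-12). Without the filter on low counts Snap25 had like changes (1.80, 1.75 and 4.95) and lost these calls, and the cause was not tested. From P8 to P14 Snap25 differed by 0.89 ± 0.11 on the log2 scale (limma, adjusted p = 0.000899), which passed the p threshold and missed the 2-fold one. Its ubiquitous relative Snap23 went the other way, from 5.66, 8.02 and 6.90 RPKM at E15.5 to 3.32, 1.43 and 1.87 at P1, with no overlap. Snap23 stood at 2.39, 2.54 and 3.07 at P8, at 2.66, 1.73 and 4.75 at P14 and at 0.800, 1.27 and 1.02 at P30. Snap23 fell by 1.66 ± 0.36 from E15.5 to P1 on the log2 scale (limma, adjusted p = 0.00890), a call lost with only the libraries compared, and of the summed level of both genes Snap25 held 90.6% ± 1.5 at E15.5 and 99.9% at P30.

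Among the vesicle SNAREs, Vamp1 rose and Vamp3 fell. Vamp1 (synaptobrevin 1) was at 1.195, 3.90 and 3.96 RPKM at E15.5, at 8.41, 17.5 and 10.2 at P1, at 65.2, 87.7 and 99.2 at P8, at 107, 159 and 129.8 at P14 and at 100.5, 131 and 138 at P30. The ages did not overlap up to P14, and P14 and P30 did. The log2 rise of Vamp1 was 2.00 ± 0.46 from E15.5 to P1 (limma, adjusted p = 0.0111) and 2.87 ± 0.27 from P1 to P8 (limma, adjusted p = 9.10e-06), and its 5.39 ± 0.42 from E15.5 to P30 was the largest rise of any member over that span. The first of these calls was lost without the filter on low counts. Vamp2 (synaptobrevin 2), the usual forebrain form, had age means between 65.8 and 125 RPKM and passed in no comparison of ages. Vamp3 (cellubrevin), used in constitutive trafficking, went from a mean of 15.1 ± 6.02 RPKM at E15.5 to 2.86 ± 0.11 at P30, a log2 fall of 2.34 ± 0.53 (limma, adjusted p = 0.00219). Of the level summed over the 3 VAMPs, Vamp1 held 3.6% ± 2.0 at E15.5 and 9.8% ± 3.5 on P1, then 44.6% ± 8.7 on P8, 65.3% ± 13.3 on P14 and 50% ± 11.6 on P30.

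Stx1a, a plasma membrane syntaxin of neurons, was at 4.83, 14.2 and 5.39 RPKM at E15.5 and at 15.7, 7.02 and 6.41 at P1. It was at 1.57, 2.05 and 1.92 at P8, at 0.355, 0.562 and 0.880 at P14 and at 0.800, 0.0825 and 0.324 at P30. The first 2 ages overlapped, all P8 libraries lay below them, and all P14 and P30 libraries lay below P8. Stx1a fell by 2.36 ± 0.55 on the log2 scale from P1 to P8 (limma, adjusted p = 0.0107) and by 4.57 ± 1.01 from E15.5 to P30 (limma, adjusted p = 0.00190). Stx2 and Stx3, syntaxins of epithelia and, for Stx3, of retinal ribbon synapses, had age means of 0.756 to 2.37 and of 3.93 to 6.31 RPKM, and neither passed in any comparison. Among these 3 syntaxins the share of Stx1a was 55.2% ± 9.6 at E15.5 and 5.4% ± 4.8 at P30, and that of Stx3 31.3% ± 11.2 and 79.0% ± 11.4. Stxbp5 (tomosyn), which binds syntaxin and SNAP25, had age means of 6.98 to 8.31 RPKM and passed nowhere.

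**Figure D2:**
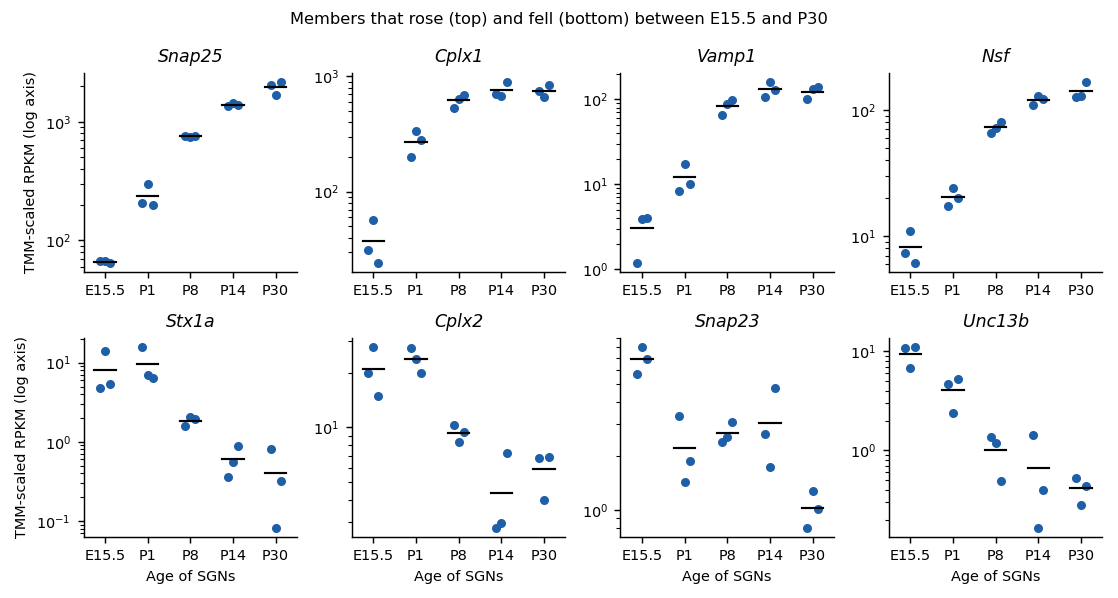
Levels of 8 members in SGNs by age (x axis), in TMM-scaled RPKM on a log axis, with a point per library and a bar at the mean of 3. Snap25, Cplx1, Vamp1 and Nsf (top) sit lowest at E15.5, whereas Stx1a, Cplx2, Snap23 and Unc13b (bottom) have their lowest means at P14 or P30.

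Of the complexins, Cplx1 rose and Cplx2 fell. Cplx1, which clamps and promotes fusion at the SNARE bundle, was at 31.4, 57.3 and 24.2 RPKM at E15.5, at 199.9, 334 and 279.5 at P1, at 532, 644 and 696 at P8, at 703, 682 and 891 at P14 and at 746, 667 and 848 at P30. E15.5, P1 and P8 did not overlap, and the last 3 ages did. Cplx1 rose by a log2 change of 2.89 ± 0.29 from E15.5 to P1 (limma, adjusted p = 2.37e-05), the largest rise of any member in that step, and of 1.24 ± 0.19 from P1 to P8 (limma, adjusted p = 0.000552). Cplx2, its close paralog, was at 20.04, 27.7 and 14.9 RPKM at E15.5, 27.4, 23.9 and 20.02 at P1, 10.4, 8.35 and 9.42 at P8, 2.81, 2.96 and 7.22 at P14 and 6.79, 3.99 and 6.92 at P30. Every library from P8 on lay below every E15.5 and P1 library. Cplx2 fell by 1.34 ± 0.25 from P1 to P8 on the log2 scale (limma, adjusted p = 0.00258). Of the 2 complexins together, Cplx1 held 63.5% ± 3.4 at E15.5, 91.5% ± 3.1 at P1 and 99.2% ± 0.2 at P30.

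Of the genes that recycle SNARE complexes, Nsf and Napb rose. Nsf, the ATPase that pulls SNARE bundles apart, was at 7.38, 10.9 and 6.15 RPKM at E15.5, 17.2, 24.0 and 19.9 at P1, 66.0, 72.4 and 80.1 at P8, 109.7, 128 and 122 at P14 and 127, 129.5 and 165 at P30. Only P14 and P30 overlapped. Its log2 rise was 1.33 ± 0.23 from E15.5 to P1 (limma, adjusted p = 0.00189) and 1.86 ± 0.17 from P1 to P8 (limma, adjusted p = 6.61e-06). Napb (beta-SNAP), the adaptor found mainly in the brain, was at 20.3, 17.8 and 15.9 RPKM at E15.5, 22.3, 34.3 and 28.7 at P1, 53.8, 66.2 and 53.2 at P8, 74.0, 78.4 and 111 at P14 and 105, 109.5 and 144 at P30. Each age lay above the one before it without overlap, except for P14 and P30. Napb rose by 1.06 ± 0.19 on the log2 scale from P1 to P8 (limma, adjusted p = 0.00205), and the call was lost without P1 replicate 1 (0.87) or P8 replicate 2 (0.94). The ubiquitous adaptor Napa (alpha-SNAP) had age means of 11.5 to 29.6 RPKM and passed in no comparison, and its share of the 2 adaptors was 39.2% ± 5.5 at E15.5 and 15.9% ± 1.5 at P30.

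**Figure D3:**
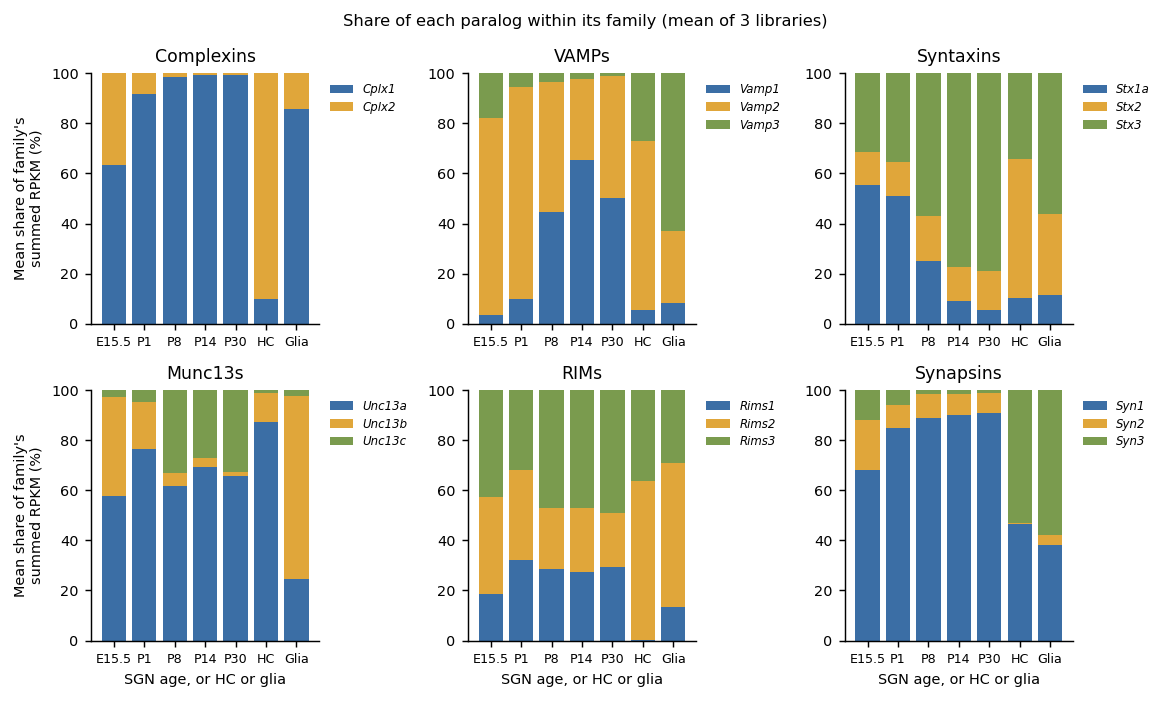
Mean share, in percent of the TMM-scaled RPKM summed over the family's members, of each paralog in 6 families (panels) at the 5 SGN ages and in HCs and glia (bars, 3 libraries each). Paralogs that are not members, such as Cplx3, Cplx4, Rims4 and Vamp4, are not in the sums. Cplx1 takes 99.2% of the complexin members in P30 SGNs and 10.0% in HCs. Rims1 takes 29.2% of the RIM members in P30 SGNs and almost none in HCs.

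Of the 15 priming and active zone genes, 2 of the Munc13 family passed between neighboring ages. Unc13b (Munc13-2) was at 10.7, 6.76 and 11.01 RPKM at E15.5, 4.66, 2.37 and 5.27 at P1, 1.36, 1.19 and 0.497 at P8, 1.44, 0.167 and 0.399 at P14 and 0.523, 0.281 and 0.439 at P30. Neighboring ages did not overlap up to P8. It fell by 1.24 ± 0.34 on the log2 scale from E15.5 to P1 (limma, adjusted p = 0.0272), a call lost without E15.5 replicate 1 (-1.14), E15.5 replicate 3 (-1.10) or P1 replicate 2 (-0.94), and by 2.02 ± 0.45 from P1 to P8 (limma, adjusted p = 0.00867). With edgeR both calls were lost, and with DESeq2 the one from E15.5 to P1 (-1.26). Unc13c (Munc13-3), known from the cerebellum, was at 0.298, 1.64 and 0.155 RPKM at E15.5, 0.692, 0.253 and 2.33 at P1, 10.3, 5.597 and 4.94 at P8, 7.66, 2.08 and 4.51 at P14 and 8.21, 7.26 and 8.54 at P30. All P8 libraries lay above all P1 libraries, and P14 replicate 2 lay below P1 replicate 3. The log2 rise from P1 to P8 was 3.20 ± 0.69 (limma, adjusted p = 0.00634), the largest of any member in that step, and the call was lost with edgeR. Unc13a (Munc13-1), the main priming factor of glutamatergic synapses, had age means of 11.4 to 16.1 RPKM and passed in no age comparison. Of the 3 genes together Unc13b held 39.3% ± 10.6 at E15.5 and 1.7% ± 0.5 at P30, and Unc13c 2.8% ± 3.3 and 32.8% ± 2.0.

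Only 2 other active zone genes passed between neighboring ages. Rimbp2, which couples RIMs to calcium channels, was at 6.96, 5.71 and 4.87 RPKM at E15.5, 9.96, 12.7 and 12.1 at P1, 6.14, 10.8 and 7.30 at P8, 6.90, 8.63 and 7.60 at P14 and 6.01, 7.16 and 7.25 at P30. The P1 libraries lay above all E15.5 libraries and overlapped P8. The log2 rise from E15.5 to P1 was 1.00 ± 0.23 (limma, adjusted p = 0.0125), at the 2-fold limit, and the call was lost without E15.5 replicate 2 (0.99) or 3 (0.88) or without P1 replicate 2 (0.89) or 3 (0.93). This call was lost in 10 of 15 alternatives, edgeR (0.99) and DESeq2 (0.94) among them. Bsn (Bassoon), a scaffold of the active zone and the ribbon, was at 19.7, 20.1 and 18.7 RPKM at E15.5, 22.0, 19.4 and 17.0 at P1, 21.6, 18.9 and 16.9 at P8, 16.6, 15.6 and 22.7 at P14 and 41.6, 27.9 and 44.6 at P30. The P30 libraries lay above all the others. Bsn rose by 1.03 ± 0.18 on the log2 scale from P14 to P30 (limma, adjusted p = 0.0368), a call lost without P14 replicate 1 (1.01) or 2 (0.96) or without P30 replicate 1 (0.96) or 3 (0.94). This call was also lost with edgeR (1.01).

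Over the whole span, Pclo (Piccolo) rose by a log2 change of 1.10 ± 0.14, from a mean of 17.5 to 37.8 RPKM (limma, adjusted p = 1.41e-05). The call was lost without P30 replicate 1 (0.98). Erc1 and Erc2 (ELKS and CAST) fell by 1.61 ± 0.26 and 1.10 ± 0.17, from 19.2 to 6.17 and from 19.2 to 9.08 RPKM (limma, adjusted p = 0.000120 and 9.93e-05). Ppfia2 (liprin-alpha 2) fell by 1.09 ± 0.28, from 10.8 to 4.72 RPKM (limma, adjusted p = 0.00491), a call lost without E15.5 replicate 1 (-0.80), and 24.5% of its exon bases are shared with genes on the opposite strand. The other 3 liprins, with age means of 4.13 to 14.2 RPKM, and Rims1, Rims2 and Rims3, with age means of 12.7 to 22.6, 13.97 to 26.4 and 22.4 to 31.6, passed in no age comparison. The deposited length of Rims2, 5046 bases, is below the 10389 exon bases of the annotation used here, which bears on its level against other genes and not on its change. Ctbp2 had age means of 1.35 to 2.93 RPKM and passed in no age comparison, with a log2 difference of -0.998 ± 0.37 from E15.5 to P30 (limma, adjusted p = 0.0401).

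**Figure D4:**
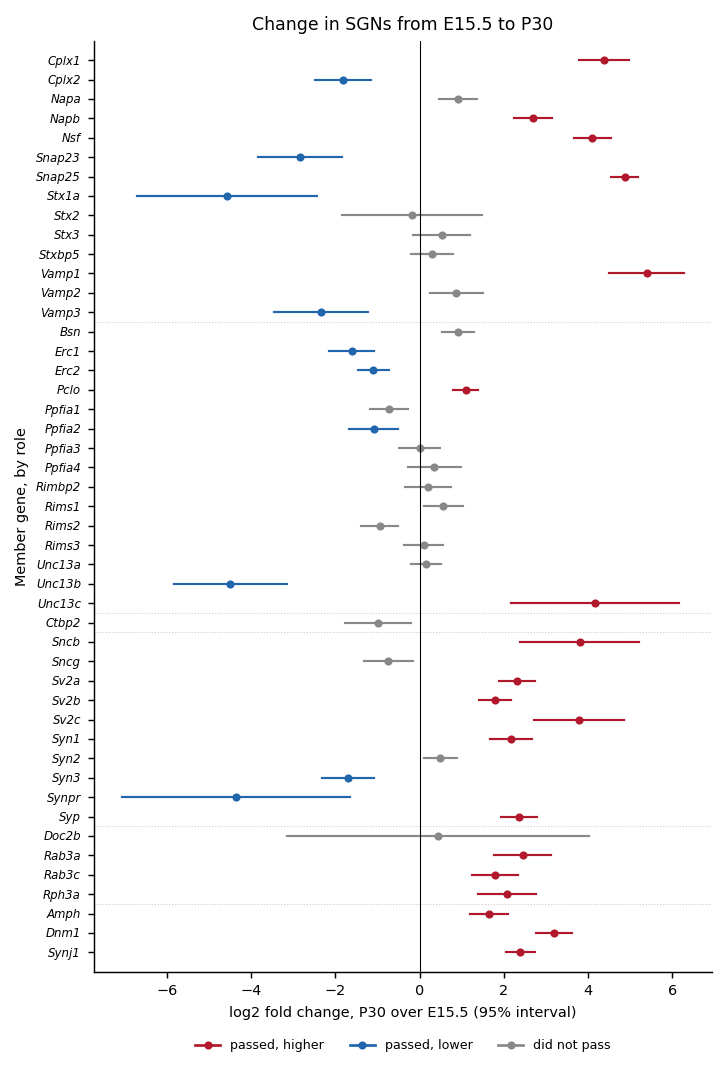
Log2 fold change from E15.5 to P30 in SGNs (x axis) for each of the 47 members (rows, by role), with the 95% interval of the limma-voom fit and color marking the 19 that rose, the 10 that fell and the 18 that did not pass. The rises reach 5.39 (Vamp1) and the falls -4.57 (Stx1a).

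Vesicle proteins split by paralog. Syn1 (synapsin 1), which tethers vesicles to the cytoskeleton, was at 21.2, 43.2 and 43.4 RPKM at E15.5, 86.4, 82.1 and 68.3 at P1, 147, 121 and 136 at P8, 149, 153 and 155 at P14 and 204, 126 and 154 at P30. The first 3 ages did not overlap. Its log2 rise from E15.5 to P1 was 1.17 ± 0.24 (limma, adjusted p = 0.00639), and the call was lost without E15.5 replicate 1 (0.87). Syn3, known from developing neurons, was at 5.47, 4.76 and 7.56 RPKM at E15.5, 6.31, 5.46 and 4.85 at P1, 3.05, 2.70 and 2.27 at P8, 1.53, 2.64 and 2.84 at P14 and 2.27, 1.67 and 1.51 at P30. From P8 on all libraries lay below all earlier ones. Syn3 fell by 1.05 ± 0.24 from P1 to P8 on the log2 scale (limma, adjusted p = 0.00948), a call lost without P1 replicate 1 (-0.95) or P8 replicate 3 (-0.97). Syn2 had age means of 8.62 to 14.6 RPKM and passed in no age comparison. Within the 3 synapsins Syn1 held 68.0% ± 10.4 at E15.5 and 90.9% ± 1.9 at P30, and Syn3 11.8% ± 3.2 and 1.0% ± 0.1.

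All 3 SV2 genes, which encode glycoproteins of the vesicle membrane, rose over the whole span. Sv2c was at 3.13, 22.2 and 2.45 RPKM at E15.5, 11.9, 23.2 and 13.3 at P1, 56.6, 67.6 and 58.4 at P8, 80.9, 111 and 90.9 at P14 and 111, 77.2 and 59.4 at P30. E15.5 replicate 2 lay within the P1 range, and P8 lay above P1 without overlap. Sv2c rose by 2.00 ± 0.39 on the log2 scale from P1 to P8 (limma, adjusted p = 0.00357), a call lost with edgeR and DESeq2. Sv2a was at 29.6, 32.9 and 37.1 RPKM at E15.5, 53.1, 60.3 and 55.2 at P1, 86.9, 101 and 104 at P8, 83.8, 122 and 138 at P14 and 143, 158 and 217 at P30. Sv2b was at 18.8, 20.5 and 22.2 RPKM at E15.5, 26.3, 33.0 and 32.4 at P1, 45.6, 44.3 and 51.4 at P8, 49.4, 42.6 and 66.4 at P14 and 64.4, 69.7 and 86.8 at P30. Sv2a and Sv2b climbed without overlap up to P8 and, among the age comparisons, passed only over the whole span, by 2.31 ± 0.20 and 1.79 ± 0.18 (limma, adjusted p = 2.52e-07 and 1.19e-06).

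Syp (synaptophysin), a major vesicle protein, rose from a mean of 61.8 ± 6.28 RPKM at E15.5 to 328 ± 58.8 at P30, a log2 change of 2.36 ± 0.20 (limma, adjusted p = 1.90e-07). Its relative Synpr (synaptoporin) had means of 2.99 ± 0.97 and 0.918 ± 1.44 RPKM at those ages, with P30 libraries at 2.58, 0 and 0.171. The fitted fall of Synpr was 4.36 ± 1.28 (limma, adjusted p = 0.0126), and the call was lost without P30 replicate 2 (-1.83), the library with 0 counts, and with edgeR (-1.72) or DESeq2 (-1.77). Sncb (beta-synuclein), a presynaptic protein, was at 18.3, 5.23 and 0.681 RPKM at E15.5, 15.8, 21.4 and 19.4 at P1, 38.3, 45.1 and 67.8 at P8, 43.9, 70.0 and 45.6 at P14 and 51.5, 41.7 and 60.4 at P30. E15.5 replicate 1 overlapped P1, and P8 lay above P1. The E15.5 library with the highest Sncb was the one with blood markers, at 115.5 RPKM against 0 in the other E15.5 libraries, and their part in the result was not tested. Sncb rose by 2.37 ± 0.69 on the log2 scale from E15.5 to P1 (limma, adjusted p = 0.0365), a call lost without E15.5 replicate 3 (1.05), P1 replicate 2 (2.23) or 3 (2.30). From P1 to P8 it rose by 1.39 ± 0.37 (limma, adjusted p = 0.0238), a call lost without P1 replicate 1 (1.25), P1 replicate 3 (1.42), P8 replicate 2 (1.43) or P8 replicate 3 (1.15). With edgeR or DESeq2 neither call of Sncb held. Sncg had age means of 183 to 417 RPKM and passed in no age comparison.

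Of the Rab3 and calcium effectors, Rph3a (rabphilin), which binds Rab3 on vesicles, was at 48.5, 43.9 and 28.3 RPKM at E15.5, 141, 138 and 105 at P1, 165, 116 and 94.1 at P8, 118, 60.4 and 137 at P14 and 205, 115 and 191 at P30. All later libraries lay above all E15.5 libraries, and the later ages overlapped. The log2 rise from E15.5 to P1 was 1.72 ± 0.33 (limma, adjusted p = 0.00407). Rab3a, the main vesicle Rab GTPase, rose from 47.7 ± 20.4 to 253 ± 44.9 RPKM over the whole span, by 2.44 ± 0.32 (limma, adjusted p = 1.90e-05), and Rab3c from 8.98 ± 1.98 to 32.9 ± 10.5, by 1.79 ± 0.26 (limma, adjusted p = 5.09e-05). Doc2b, a calcium sensor, lay between 0 and 1.39 RPKM in every SGN library and passed nowhere.

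All 3 endocytosis members rose over the whole span. Dnm1 (dynamin 1), which cuts vesicles from the membrane, was at 20.9, 40.8 and 26.0 RPKM at E15.5, 61.6, 81.0 and 71.1 at P1, 131, 146 and 146 at P8, 194, 234 and 276 at P14 and 253, 241 and 308 at P30. Only P14 and P30 overlapped. Dnm1 rose by 1.31 ± 0.22 on the log2 scale from E15.5 to P1 (limma, adjusted p = 0.00165) and by 1.00 ± 0.17 from P1 to P8 (limma, adjusted p = 0.00137), the latter a call lost without P1 replicate 1 (0.89), P8 replicate 2 (0.96) or P8 replicate 3 (0.96). That second call was lost in 10 of 15 alternatives, edgeR (0.99) and DESeq2 (0.97) among them. Synj1 (synaptojanin 1), which strips clathrin coats, rose from 24.1 ± 5.75 to 127 ± 11.8 RPKM, by 2.39 ± 0.17 (limma, adjusted p = 2.80e-08), and Amph (amphiphysin) from 26.2 ± 4.69 to 83.1 ± 9.88, by 1.64 ± 0.22 (limma, adjusted p = 1.90e-05).

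The myelin markers of the P8 SGN libraries given above moved with the step from P1 to P8. Each of the 9 members that rose in that step was lower in every glia library than in every P8 SGN library. Of the 4 that fell, Unc13b was at 2.68 to 3.70 RPKM in glia, above its P8 level in SGNs, and Syn3 at 2.78 to 9.10, which reached above its P8 level. Stx1a, at 0 to 1.201 RPKM, and Cplx2, at 1.12 to 4.87, were lower in every glia library than in every P8 SGN library. The part of glial RNA in the rises and in the falls was not tested.

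Between cell types a difference was called at a limma adjusted p under 0.01 and over 4-fold, with SGNs taken as the mean of the 5 age means. Against HCs, 22 members were higher and 2 lower in SGNs (10.5% and 16.2% of all 17531 genes tested). Against glia, 31 were higher and 1 lower (14.3% and 10.4%). HCs against glia gave 12 higher and 2 lower (16.2% and 8.18%). The median log2 difference of the members was 1.61, 3.49 and 0.61, beside 0.02, 0.22 and 0.14 over all genes. With scaling by library size alone the median of all genes moved by -0.56 in SGNs against HCs and by 0.49 in HCs against glia, and the members split 18 to 2 and 14 to 1. The same 22 members were higher in SGNs than in both other cell types, and 9 more (Vamp2, Unc13a, Rims2, Rimbp2, Erc2, Ppfia4, Synj1, Dnm1 and Amph) were higher in SGNs than in glia and did not pass against HCs. The 3 comparisons share libraries. Because SGNs enter as a mean over ages, the E15.5 libraries still overlapped HCs for 3 of the 22 members (Nsf, Sv2c and Vamp1) and glia for 8 of the 31 (Cplx1, Nsf, Rab3a, Snap25, Sncb, Sv2c, Synj1 and Vamp1). The matching shares over all genes were not counted for the 22 shared members, the 9 more or these overlaps.

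**Figure D5:**
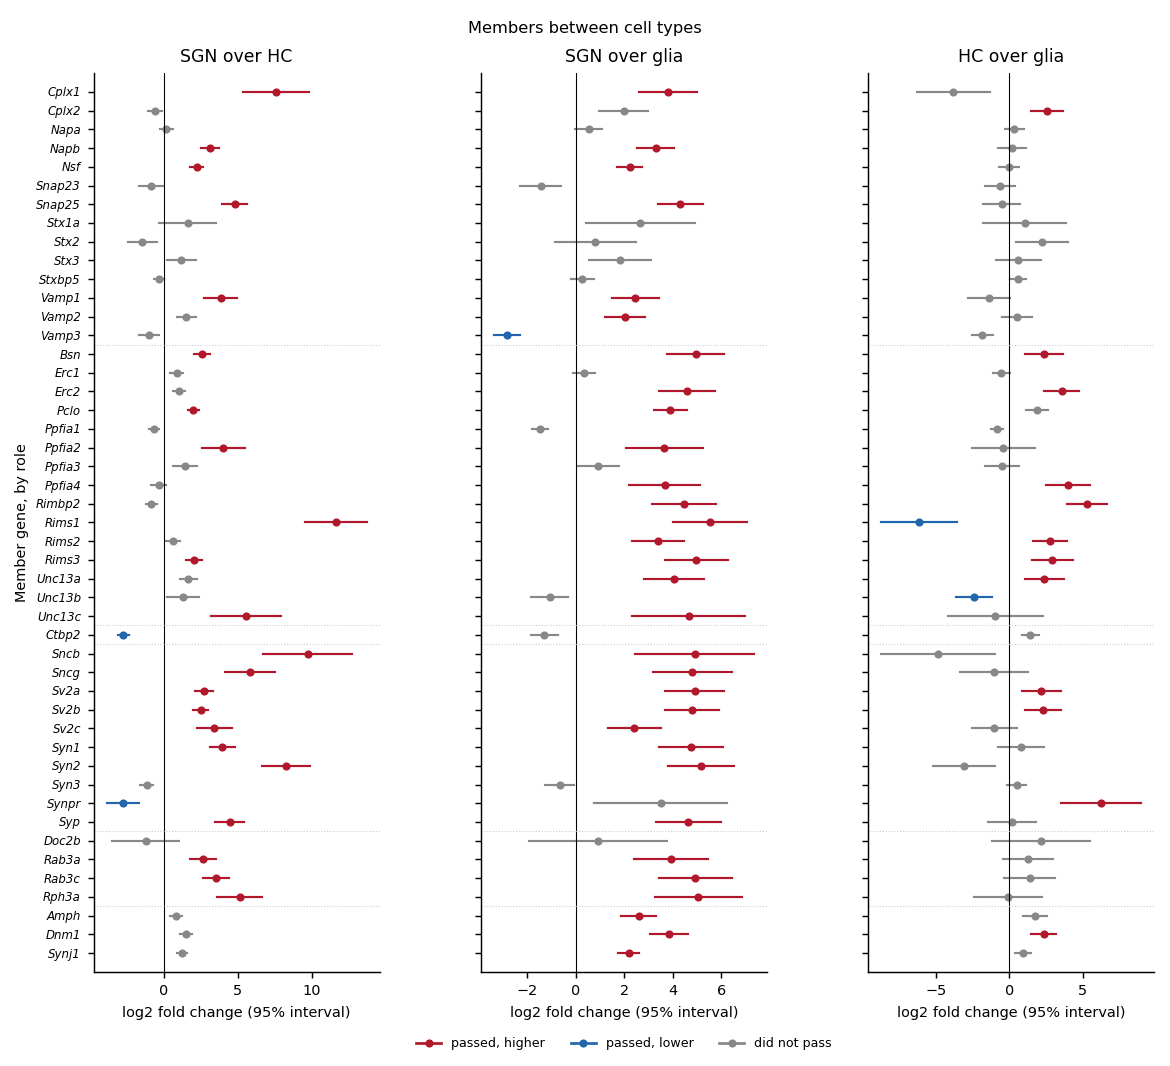
Log2 fold differences (x axes) of the 47 members (rows, by role) for SGNs over HCs, SGNs over glia and HCs over glia, with 95% intervals of the limma-voom fit of all 21 libraries and color marking members that passed. SGNs stand above HCs for 22 members and below for Ctbp2 and Synpr.

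Ctbp2, the ribbon gene, was highest in HCs. HC libraries had 11.1, 12.7 and 12.9 RPKM, the 15 SGN libraries 1.02 to 3.25 and the glia libraries 5.15, 3.62 and 4.84, and these ranges did not overlap. Ctbp2 was lower in SGNs than in HCs by a log2 difference of -2.73 ± 0.19 (limma, adjusted p = 1.28e-10) and lower in SGNs than in glia by -1.30, which missed the 4-fold limit. The counts are per gene, so RIBEYE, for which the second start was printed above, and the widely expressed corepressor from other starts cannot be told apart. Among SGN libraries the highest HC marker sum, 56.2 RPKM, was in P14 replicate 1, which had the highest Ctbp2 of the P14 libraries (2.62, against 1.41 and 1.26), and the part of HC RNA in it was not tested. In glia the HC marker sums were 49.9, 31.2 and 38.9 RPKM, in the same order of libraries as Ctbp2. The vGlut3-iCreER/+ line also labels inner HCs, which the authors discarded by dissecting the SGN area. The part of HC RNA in the glia levels was not tested. Synpr was at 3.84, 3.82 and 3.14 RPKM in HCs and at 0 to 3.70 in SGNs, so the groups overlapped at E15.5. It was lower in SGNs by -2.76 ± 0.53 (limma, adjusted p = 0.000177), and higher in HCs than in glia (0.0879, 0.0186 and 0.0411 RPKM) by 6.25 ± 1.32 (limma, adjusted p = 0.000672).

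Rims1 (RIM1), the scaffold that recruits Munc13 and calcium channels in most central synapses, was close to absent from the HC libraries. It had 2, 0 and 0 counts in the 3 HC libraries, 1.62, 0.190 and 0.105 RPKM in glia, and SGN libraries between 8.75 and 25.5 RPKM. The 15 SGN libraries were at 14.8, 8.75 and 14.5 RPKM at E15.5, 19.0, 25.5 and 23.2 at P1, 17.1, 21.2 and 18.5 at P8, 13.7, 19.4 and 17.3 at P14 and 16.3, 20.7 and 19.1 at P30. The 3 cell types did not overlap. The SGN mean was 4283 times the HC level, with a 95% exact Poisson interval of 1186 to 35370 from the 2 HC counts, which covers counting error only. Even counts were in excess in the table, and if the 2 counts were the mates of 1 fragment the lower bound would be 769. The fitted log2 difference from HCs depends on the offset added to such counts, and limma gave adjusted p = 3.43e-09 against HCs and 3.28e-06 for SGNs against glia. Rims1 was lower in HCs than in glia (limma, adjusted p = 0.000457), where glia replicate 1, with the most SGN markers, had the most Rims1.

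The other RIM members, Rims2 and Rims3, were found in HCs. Rims2 was at 10.7, 12.5 and 12.9 RPKM in HCs, against SGN age means of 13.97 to 26.4, and the log2 difference of 0.61 ± 0.23 did not pass (limma, adjusted p = 0.0281). Rims3, a short RIM, was at 5.57, 7.47 and 7.66 RPKM in HCs and at 2.32, 0.670 and 0.316 in glia. In SGNs Rims3 was at 25.3, 25.9 and 35.7 RPKM at E15.5, 21.5, 23.7 and 22.1 at P1, 32.6, 31.1 and 28.9 at P8, 33.2, 18.2 and 37.1 at P14 and 31.0, 27.4 and 36.4 at P30. The 3 cell types did not overlap. Rims3 was higher in SGNs than in HCs by 2.02 ± 0.26 (limma, adjusted p = 1.26e-06), at the 4-fold limit, and the call was lost when any 1 of 11 libraries was left out (1.92 to 1.98). This call was lost in 14 of 28 alternatives, DESeq2 (1.83) among them. Rims3 was higher in HCs than in glia by 2.94 ± 0.67 (limma, adjusted p = 0.00128). Of the 3 RIMs together, Rims2 held 63.7% ± 1.8 in HCs and 21.7% ± 1.3 in P30 SGNs with the deposited length, and 46.1% ± 1.9, behind Rims3, and 11.9% ± 0.8 with the annotated one, an alternative chosen after seeing the data.

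Rimbp2 was at 13.0, 12.5 and 15.6 RPKM in HCs and at 1.05, 0.221 and 0.122 in glia, a log2 difference of 5.30 ± 0.65 (limma, adjusted p = 1.91e-06), and lay at 4.87 to 12.7 RPKM in SGNs, overlapping HCs. Bsn was at 3.56, 3.76 and 3.69 RPKM in HCs and at 1.79, 0.571 and 0.219 in glia, below all SGN libraries. It was higher in SGNs than in HCs by 2.57 ± 0.26 (limma, adjusted p = 3.90e-08) and in HCs than in glia by 2.38 ± 0.61 (limma, adjusted p = 0.00354), the latter a call lost without glia replicate 2 (2.24) or 3 (1.72). Pclo was at 6.25 to 7.35 RPKM in HCs, and its difference of 2.01 ± 0.18 from SGNs (limma, adjusted p = 5.93e-09) was also at the 4-fold limit, with the call lost when any 1 of 13 libraries was left out (1.93 to 2.00). This call was lost in 19 of 28 alternatives, DESeq2 (1.785) among them. Ppfia2 was at 0.327 to 0.600 RPKM in HCs, where SGNs were higher by 4.04 ± 0.70 (limma, adjusted p = 5.35e-05), and Ppfia4 at 11 to 16.4 RPKM, within the SGN range of 5.95 to 17.2. Erc1 did not pass in any comparison of cell types, while Erc2 was lower in glia (0.180 to 2.30 RPKM) than in SGNs by 4.58 ± 0.56 and than in HCs by 3.56 ± 0.58 (limma, adjusted p = 9.20e-07 and 5.57e-05).

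The Munc13 genes also differed. Unc13a was at 3.94 to 4.90 RPKM in HCs and 0.0923 to 2.77 in glia, and held 87.2% ± 1.4 of the Munc13 members in HCs. It was higher in SGNs than in glia by 4.05 ± 0.60 (limma, adjusted p = 1.27e-05) and in HCs than in glia by 2.397 ± 0.65 (limma, adjusted p = 0.00517), a call lost without HC replicate 3 (2.30), glia replicate 2 (2.64) or glia replicate 3 (1.17). The call for HCs against glia was also lost with edgeR (1.69) and DESeq2 (1.9). Unc13b was at 0.488 to 0.773 RPKM in HCs and 2.68 to 3.70 in glia, lower in HCs by -2.39 ± 0.58 (limma, adjusted p = 0.00229), a call lost without HC replicate 2 (-2.32). Unc13c was at 0.0945, 0.0196 and 0.0550 RPKM in HCs and at 0.0708, 0.119 and 0.0883 in glia, below every SGN library. SGNs were higher by 5.58 ± 1.13 against HCs (limma, adjusted p = 0.000291) and by 4.65 ± 1.11 against glia (limma, adjusted p = 0.00166), the latter a call lost without any 1 of the 3 glia libraries (4.46 to 4.86).

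Snap25 and Cplx1 were higher in SGNs than in HCs, where Cplx2 was higher than Cplx1. Snap25 was at 20.6, 16.9 and 16.7 RPKM in HCs and at 87.7, 13.9 and 7.49 in glia. All SGN libraries except those of E15.5 lay above all of these, and the E15.5 libraries lay below glia replicate 1. Snap25 was higher in SGNs than in HCs by 4.81 ± 0.41 (limma, adjusted p = 2.70e-09) and than in glia by 4.30 ± 0.45 (limma, adjusted p = 1.19e-07). Cplx1 was at 2.03, 2.26 and 0.995 RPKM in HCs and at 86.3, 11.9 and 5.50 in glia, with SGNs higher than HCs by 7.59 ± 1.07 (limma, adjusted p = 4.20e-06). Cplx2 was at 16.5, 16.9 and 12.8 RPKM in HCs, within the SGN range. Of Cplx1 and Cplx2 together, Cplx2 held 90.0% ± 2.5 in HCs and 0.8% ± 0.2 in P30 SGNs. Cplx2 was higher in HCs than in glia by 2.58 ± 0.52 (limma, adjusted p = 0.000439).

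Vamp1 was at 2.61, 1.88 and 2.55 RPKM in HCs, where Vamp2 led with 28.7, 29.1 and 32.8, and SGNs were higher in Vamp1 by 3.84 ± 0.53 (limma, adjusted p = 2.98e-06). The E15.5 libraries of Vamp1 overlapped HCs, and its share of the VAMP members was 5.3% ± 1.1 in HCs beside 3.6% ± 2.0 at E15.5. Vamp2 was higher in SGNs than in glia by 2.02 ± 0.40 (limma, adjusted p = 0.000316), a call lost when any 1 of 8 libraries was left out (1.65 to 2.00). This call was lost in 15 of 28 alternatives, edgeR (1.97) and DESeq2 (1.94) among them. Vamp3 had the highest mean of any member in glia, with libraries at 34.6, 45.3 and 54.0 RPKM, above all its SGN and HC libraries. In glia replicate 1 Snap25, Cplx1 and Vamp2 lay above it. Vamp3 was the 1 member lower in SGNs than in glia, by -2.83 ± 0.26 (limma, adjusted p = 2.00e-08). Nsf was at 8.92 to 10.3 RPKM in HCs and Napb at 4.82 to 6.43, lower than SGNs by 2.22 ± 0.21 and 3.11 ± 0.29 (limma, adjusted p = 1.91e-08 and 1.45e-08). The E15.5 libraries of Nsf, at 6.15 to 10.9, overlapped those of HCs, and their mean of 8.14 lay below the HC mean of 9.75 and the glia mean of 10.1. Against glia the SGN excess of Nsf was 2.21 ± 0.25 (limma, adjusted p = 3.09e-07), and the call was lost without glia replicate 2 (1.95). Stx1a, Stx2, Stx3, Snap23, Stxbp5 and Napa passed in no comparison of cell types.

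Of the 10 vesicle proteins, 8 were higher in SGNs than in HCs. Syn2 was at 0.0675, 0.0306 and 0.0229 RPKM in HCs against 8.40 to 17.2 in SGNs, a log2 difference of 8.24 ± 0.78 (limma, adjusted p = 1.57e-08). Syn1 was at 6.28 to 6.35 RPKM in HCs, lower than SGNs by 3.96 ± 0.41 (limma, adjusted p = 6.66e-08), whereas Syn3 was at 6.44 to 7.95 RPKM in HCs and did not pass in any comparison of cell types. Syn3 therefore held 53.1% ± 2.6 of the synapsins in HCs. Sncb had 9, 0 and 0 counts in HCs, all in a single library, and the SGN mean was 562 times the HC level (95% exact Poisson interval 296 to 1229). That interval covers the error of independent counts only and not the spread between HC libraries. Even counts were in excess in the table, so it is too narrow if counts were mates of the same fragment. Against glia the call of Sncb was lost without glia replicate 2 (4.63) or 3 (3.55). Syp was at 6.19 to 9.64 RPKM in HCs, lower than SGNs by 4.45 ± 0.47 (limma, adjusted p = 7.43e-08), and Sncg at 2.08 to 8.92, lower by 5.82 ± 0.81 (limma, adjusted p = 3.51e-06).

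Sv2a and Sv2b passed in all 3 comparisons, as did Rims1, Rims3 and Bsn. Sv2a was at 11.1, 13.96 and 11.4 RPKM in HCs and at 6.59, 2.12 and 0.879 in glia, below all SGN libraries. It was higher in SGNs than in HCs by 2.72 ± 0.28 (limma, adjusted p = 6.11e-08) and in HCs than in glia by 2.18 ± 0.64 (limma, adjusted p = 0.00911), a call lost when any 1 of 5 libraries was left out (1.56 to 2.22). The call for HCs against glia was also lost with edgeR (1.915). Sv2b was at 8.90, 6.77 and 6.52 RPKM in HCs and at 3.97, 1.04 and 0.452 in glia, again below all SGN libraries. It was higher in SGNs than in HCs by 2.48 ± 0.25 (limma, adjusted p = 3.35e-08) and in HCs than in glia by 2.31 ± 0.58 (limma, adjusted p = 0.00303), a call lost without glia replicate 2 (2.10) or 3 (1.65).

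Rab3a, Rab3c and Rph3a were higher in SGNs than in HCs, by 2.65 ± 0.42, 3.52 ± 0.43 and 5.14 ± 0.73 (limma, adjusted p = 1.78e-05, 6.21e-07 and 4.80e-06). The endocytosis genes did not pass against HCs. Dnm1, at 35.3, 41.3 and 41.8 RPKM, Amph, at 26.0 to 31.0, and Synj1, at 24.5 to 26.4, were among the 4 highest members in HCs. Dnm1 differed by 1.49 ± 0.19 on the log2 scale from SGNs, Synj1 by 1.23 ± 0.15 and Amph by 0.84 ± 0.20, all under the 4-fold limit, and the HC levels of each overlapped its E15.5 range in SGNs. In glia the 3 genes were lower than in SGNs by 3.84 ± 0.37, 2.18 ± 0.21 and 2.58 ± 0.35 (limma, adjusted p = 4.19e-08, 4.38e-08 and 3.44e-06).

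Of the 47 members, 29 had their highest glia value in glia replicate 1, the library with the most SGN markers. The share over all genes was not counted. Glia replicate 1 also had the most counts and cells of the glia libraries (19759856 and 125). Without it the comparison of SGNs with glia called 32 members, 31 of them shared with the full comparison (Unc13c was lost and Cplx2 added), with Snap25 higher by 5.61 and Cplx1 by 5.28 on the log2 scale, and HCs against glia called 17. In the HC libraries the SGN markers Tubb3, Slc17a7 and Lypd1 each lay at or below 0.498 RPKM, Slc17a6 was at 1.32 to 2.29, and Gata3, at 9.73 to 12.2, made up most of the sum.

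Of the 47 members, 7 passed in none of the 8 comparisons. They were Stx2, Stx3, Stxbp5 and Napa among the SNAREs and their partners, the liprins Ppfia1 and Ppfia3, and Doc2b. The share of all genes that passed in none was not counted. Ppfia1 was at 13.8 to 20.4 RPKM in glia, above all SGN libraries (3.65 to 8.84), with a log2 difference under the 4-fold limit.

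Another 82 genes of vesicle docking, fusion and endocytosis, outside the 47, were counted beside them, of which 74 were tested between ages and 78 between cell types. From E15.5 to P1, 3 rose and 3 fell (4.05% each, against 5.08% and 3.18% of all genes), led by Brsk1, a presynaptic kinase (1.18 ± 0.34), and Baiap3, a Munc13 relative (-3.51 ± 0.79). From P1 to P8, 7 rose and 2 fell (9.46% and 2.70%, against 4.29% and 3.15%), led by Syngr1 (synaptogyrin 1, a vesicle protein, 2.33 ± 0.33) and Tspoap1, a RIM-binding protein (-1.43 ± 0.41). From P8 to P14 Pacsin2, an endocytosis adaptor, rose (1.10 ± 0.23) and 0 fell (1.35% and 0%, against 0.251% and 0.285%). From P14 to P30 limma called 0, with 8 at an unadjusted p under 0.05 and 0 by edgeR and DESeq2. The share of all genes at that unadjusted p was not counted. From E15.5 to P30, 29 rose and 9 fell (39.2% and 12.2%, against 18.4% and 16.2%), again led by Syngr1 (5.72 ± 0.51) and Baiap3 (-4.77 ± 0.99). SGNs exceeded HCs for 8 genes, led by Rims4 (9.93 ± 1.10), and were lower for 11, led by Dnajc5b, a cysteine string protein (-7.23 ± 0.53). These were 10.3% and 14.1% of the list, near or below the 10.5% and 16.2% of all genes. Against glia 18 were higher, led by Rims4 (6.92 ± 1.02), and 7 lower, led by Ston2, an endocytic adaptor (-6.08 ± 0.36), which was 23.1% and 8.97% against 14.3% and 10.4%. HCs exceeded glia for 13, led by Sypl2 (6.46 ± 1.34), and were lower for 5, led by Syngr3 (-5.07 ± 1.32), which was 16.7% and 6.41% against 16.2% and 8.18%.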

How the data were processed

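The authors aligned reads to mm10 with STAR 2.4.0i and deposited whole-number read counts per gene from featureCounts with GENCODE vM15, with the gene length and strand and multimapping settings were not given in the sources used here. RNA had been amplified with the Ovation system. A median of 67.9% of counts from 1 to 20 per library were even, so counts are not independent molecules. Symbols came from GENCODE M21 (GRCm38), which named 52403 of 52550 genes and left 147 unnamed.

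Members and lists were chosen with earlier results of these data known. Genes above 1 CPM in each library of some group were fitted with limma-voom on TMM-scaled counts (limma 3.58.1, edgeR 4.0.16, DESeq2 1.42.0, group means), the ages in 15 SGN libraries and the cell types in all 21, with Benjamini-Hochberg adjustment. Errors are SE for log2 changes and SD elsewhere. Replicate numbers were checked as pairs by correlating deviations from group means, and every pair exceeded 0.1 only for P14 and P30 (r = 0.39, 0.24 and 0.10), where the fit with the block called the same number of members. The replicate 1 pair also reached r = 0.37 for P1 and P8 and 0.34 for P8 and P14. The part of this shared replicate number in the results was not tested beyond the fit with the block. A count of 0 allows up to 3 counts, or 0.0805 to 0.289 CPM. Values in every library are given for members that passed between neighboring ages or in all 3 cell type comparisons. Simulated data were used to test the fits. Alternatives were other scalings, filters, tests (edgeR, DESeq2), weights, sample sets and leaving out each library. Of the SGN markers, 1 is not reported here.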

Additional observations from a re-analysis of the deposited data

How the results depend on the processing

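No member called in any comparison changed sign under any alternative. Counts of members called moved by over 1.5 times as follows. From P1 to P8, 13 became 24 with the adjusted p alone and 8 with edgeR. From P8 to P14, 0 became 4 with the adjusted p alone, 2 with sample quality weights, and 1 with library size only, without the filter or with edgeR. From P14 to P30, 1 became 2 with DESeq2 and 0 with edgeR or with only the libraries compared. For HCs against glia, 14 became 7 with sample quality weights and 8 with only the libraries compared. The causes were not tested. Leaving out 1 library gave 8 to 13 members from E15.5 to P1, 9 to 16 from P1 to P8, 0 to 1 from P8 to P14 (1 without P8 replicate 1, P14 replicate 1 or P14 replicate 2), 0 to 1 from P14 to P30, 29 to 31 from E15.5 to P30, 22 to 24 for SGNs against HCs, 29 to 34 against glia and 10 to 17 for HCs against glia. With the replicate block the counts were 13, 13, 0, 1, 29, 23, 31 and 16 in that order. Without the filter on low counts Snap25 lost its 5 calls at like fold changes. Against glia, sample quality weights ended the calls of Ppfia4, Rab3a, Rph3a, Sncb, Sncg, Sv2c, Unc13c, Vamp1 and Vamp2 in SGNs, and those of Bsn, Cplx2, Ppfia4, Rims3, Sv2a, Sv2b, Synpr and Unc13a in HCs. Against HCs, library size only ended those of Nsf (1.67), Pclo (1.45), Rims3 (1.46) and Sv2b (1.93), and edgeR and DESeq2 that of Synpr. DESeq2 gave no adjusted p for 6 calls of Snap25, Erc2 and Ppfia4, which were left out of these counts. Library size only moved the median of all genes by -0.48 on the log2 scale from E15.5 to P30. Of the calls, 4 of 11, 5 of 13, 0 of 1 and 25 of 29 held in every alternative for the age steps with calls, and 18 of 24, 21 of 32 and 3 of 14 between cell types. Levels near 1 RPKM rest on few counts.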
